A study of Mus musculus with 12 samples.

Results

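Collagen fibres are finished by a small set of enzymes and helper proteins, and 10 of their genes are described here: the prolyl 4-hydroxylase subunits P4ha1 and P4ha3, the lysyl hydroxylases Plod1 and Plod2, the collagen chaperone Serpinh1, the procollagen C-proteinase enhancer Pcolce, and the lysyl oxidase family members Lox, Loxl1, Loxl2 and Loxl3. They were taken by gene symbol from a matrix of transcript abundances in TPM (a relative abundance scaled for transcript length and library total), summed to genes. They are 10 of the 33641 gene symbols in that matrix, and 9 of them are among the 13158 symbols with 1 TPM or more in 3 or more of the 12 libraries. The exception was P4ha3, which is described by its values and was not tested. Lox and Loxl3, the lowest of the 9, reached 1 TPM in every sham library, so none of the 9 passed only through the group in which it was high. The 12 libraries were stranded mRNA libraries from the myocardium of male C57BL/6 wild-type mice about 16 weeks old, with 3 mice in each of 4 groups. A pair of groups had a sham operation and the other pair MI (myocardial infarction) surgery, and from 2 weeks after surgery injections of vehicle or of prednisone (a glucocorticoid prodrug) were given for 6 weeks. Prednisone was given once a week at lights-on by intraperitoneal injection at 1 mg/kg, and tissue was collected 24 hours after the last dose. The groups are called sham vehicle, sham prednisone, MI vehicle and MI prednisone. The infarct method and the position of the tissue relative to the scar were not given in the sources used here.

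As background, collagen chains are hydroxylated on proline and lysine in the endoplasmic reticulum, where prolyl hydroxylation stabilises the triple helix and Serpinh1 (also called HSP47) binds the folded molecule. After secretion the propeptides are cut off, a step that Pcolce accelerates, and lysyl oxidases then oxidise lysine and hydroxylysine residues so that neighbouring molecules crosslink. In the injured heart this work is done mainly by fibroblasts and is known for setting the stiffness and strength of the scar.

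The labelled tissue carried its defining markers: the summed level of 6 cardiomyocyte genes (Myh6, Tnnt2, Tnni3, Actn2, Ryr2 and Myl2) lay between 16490 and 30638 TPM in every library. The files hold no counts, so the depth of each library is unknown and no counting interval can be given. The number of genes at 1 TPM or more ran from 11690 to 14307, with the highest number in MI vehicle replicate 3. In that library the median gene stood 0.74 (log2) above its sham vehicle mean, whereas the other libraries ranged from -0.07 to 0.25. In the 3 MI prednisone libraries the change of a gene from the sham vehicle mean was negatively correlated with its transcript length (Spearman -0.38, -0.40 and -0.25 across genes), against -0.12 to 0.24 in the other 9. Each library is one mouse by the labels, with 3 per group. The limma p-values below rest on the spread between libraries within groups, pooled over all 4 groups and moderated across genes unless stated otherwise.

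After MI the crosslinking and processing genes were higher in vehicle-treated hearts, led among the tested genes by Lox (7.74-fold by mean TPM) and Loxl3 (5.34-fold). Under limma on log2(TPM + 1), with Benjamini-Hochberg adjustment over all 13158 genes, 8 of the 9 tested genes rose, and only Plod1 was not called. Among all genes 15.1% rose and 0.904% fell in this comparison. The median change of the 9 genes was 1.06 (log2), beside 0.39 for all genes tested. All 9 had MI vehicle values that did not overlap those of sham vehicle, as did 40.8% of all genes in that direction. The count fell to 4 (Lox, Loxl1, Loxl3 and Pcolce) after median-ratio rescaling of the libraries, to 2 without sham vehicle replicate 1, to 2 without sham vehicle replicate 3, and to 0 when the fit held only the vehicle groups.

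Weekly prednisone after MI went with lower levels of 4 of the 9 genes: Lox, Loxl1, Loxl2 and Plod2 fell relative to vehicle, and none rose. Among all genes 34.9% fell and 2.50% rose in the same comparison, so the number of these genes that fell is close to what held for genes at large. The median change was -0.68 (log2) over the 9 genes and -0.41 over all genes, but the 9 were split. Relative to the median gene Lox stood at -1.32, Loxl2 at -1.11, Loxl1 at -0.62, Plod2 at -0.52 and Loxl3 at -0.27. Serpinh1 (0.51), P4ha1 (0.30), Plod1 (0.26) and Pcolce (0.22) stood above it. The MI groups of Lox, Loxl1, Loxl2 and Plod2 did not overlap, as was so for 42.6% of all genes in that direction. The same 4 genes were called in the interaction of surgery and drug, the test of whether the drug difference in MI hearts departs from that in sham hearts, in which 20.7% of all genes were lower and 0.540% higher. After median-ratio rescaling Lox and Loxl2 were still called lower in MI prednisone and no interaction was called. After a correction for transcript length only Lox was called (-1.11, adjusted p = 0.0489). The length used for Lox was that of its transcript ENSMUST00000171470.7 alone, since its other transcript had no length in the annotation used.

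Between MI prednisone and sham prednisone hearts 1 of the 9 gene totals was called. Pcolce rose (1.78-fold by mean TPM), against 2.73% of all genes, and none of the 9 fell, against 14.1%. Loxl3 was 2.80-fold higher by mean TPM and not called (limma adjusted p = 0.0537), and Loxl2 and Plod2 were lower and not called. The median change was 0.14 (log2), and -0.06 over all genes. In sham hearts none of the 9 genes was called for prednisone against vehicle, and 15 of the 13158 genes (0.114%) were called by limma. At an unadjusted p under 0.05 there were 469 genes (3.56%), among them P4ha1 and Serpinh1. These 4 comparisons share groups with each other, so their values for a gene are given side by side below and are not independent.

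Sums of cell type markers also differed between the groups, some in the direction of these genes and some in the other. The summed level of 8 fibroblast genes was 889 to 1127 TPM in sham vehicle, 1545 to 1754 in MI vehicle and 738 to 1213 in MI prednisone. By limma, 6 of the 8 rose after MI under vehicle and 6 fell under prednisone after MI, beside 15.1% and 34.9% of all genes. The sum of 6 activated fibroblast genes (Postn, Cthrc1, Comp, Fap, Cilp and Meox1) was 25.7 to 34.9 TPM in sham vehicle, 129 to 351 in MI vehicle and 68.5 to 174 in MI prednisone. The 6 macrophage genes summed to 222 to 327 TPM in sham vehicle, 516 to 1206 in MI vehicle and 254 to 483 in MI prednisone. The 6 cardiomyocyte genes summed to 24449 to 25524 TPM in sham vehicle, 16490 to 21162 in MI vehicle and 26078 to 30638 in MI prednisone. The 5 atrial genes (Myl7, Myl4, Sln, Nppa and Bmp10) summed to 855 to 2512 TPM in sham vehicle, 2813 to 4122 in MI vehicle and 4358 to 6191 in MI prednisone. By limma only Nppa of these rose after MI under vehicle, beside 15.1% of all genes. The list median there was -0.77 (log2), beside 0.39 for all genes. Under prednisone after MI the atrial genes Myl7, Myl4 and Sln rose, beside 2.50% of all genes, with a list median of 1.98. The 5 epicardial genes summed to 26.7 to 62.9 TPM in sham vehicle, 81.0 to 155 in MI vehicle and 24.0 to 79.0 in MI prednisone. Of the 5, 4 fell under prednisone after MI (median -1.45), beside 34.9% of all genes. No gene of these lists was at 0 in a whole group. In bulk tissue, fewer cells of a type and less RNA per cell cannot be told apart, and the part of cell makeup or of the region sampled in these changes was not tested.

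**Figure D1:**
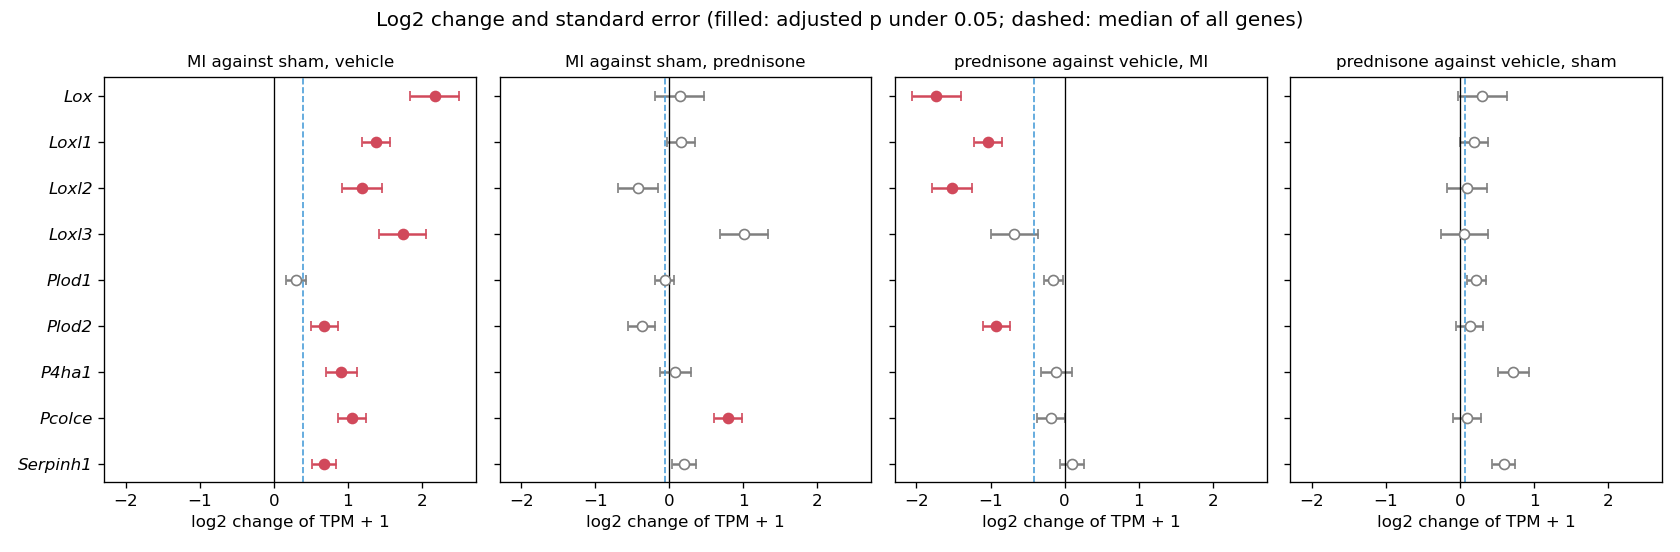
Log2 change of TPM + 1 (x axis) with its standard error for the 9 tested genes in the 4 comparisons. Filled points passed an adjusted p of 0.05, open points did not, and the dashed line is the median of all genes tested. The first panel has 8 filled points to the right of 0, the second has Pcolce, the third has Lox, Loxl1, Loxl2 and Plod2 to the left of 0, and the fourth has none.

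The prolyl hydroxylases come first in the pathway. P4ha1 encodes a catalytic alpha subunit of collagen prolyl 4-hydroxylase, and its level was 10.7, 12.3 and 10.5 TPM in sham vehicle, 18.0, 23.3 and 16.4 in the sham prednisone hearts, 16.3, 25.3 and 25.0 in the MI vehicle hearts, and 26.3, 16.9 and 18.3 in MI prednisone. The sham vehicle hearts were the low group, and the other 3 groups overlapped one another. P4ha1 rose after MI in vehicle hearts by 0.91 (log2, SE 0.21, limma adjusted p = 0.0210). In sham hearts the prednisone difference was 0.72 (SE 0.21), with an unadjusted limma p of 0.00508 that did not pass adjustment (adjusted p = 0.904). The prednisone difference after MI was -0.11 (adjusted p = 0.688), and it was 0.33 after median-ratio rescaling.

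P4ha1 has alternative copies of an exon, and the gene total hid a shift between its annotated transcripts. The pair of exons is printed here because it tells ENSMUST00000009789.14, with the upstream copy, from ENSMUST00000105466.2, with the downstream copy. Another transcript, ENSMUST00000092512.10, differs elsewhere in the gene, as given below, and much of the shift lay between it and ENSMUST00000105466.2. The upstream copy lies at chr10:59354340-59354410 and the downstream copy at chr10:59355350-59355420 (GRCm38, plus strand), within the coding part of the gene. Each is 71 bases long, 42 positions are equal, and capitals mark the 29 that differ.
P4ha1 upstream exon of the pair: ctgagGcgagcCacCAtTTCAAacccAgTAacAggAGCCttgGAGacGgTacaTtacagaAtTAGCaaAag
P4ha1 downstream exon of the pair: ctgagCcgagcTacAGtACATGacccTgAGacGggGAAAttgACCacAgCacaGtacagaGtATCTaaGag

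The transcript with the downstream exon and the full coding length (ENSMUST00000105466.2) was at 9.01, 12 and 12.3 TPM in MI vehicle and at 1.37, 0.260 and 5.91 in MI prednisone. Every MI prednisone heart was below every MI vehicle heart, and it fell by 2.13 (log2, SE 0.48, limma adjusted p = 0.00756 over 27769 transcripts). It was also lower than in sham prednisone, by -1.91 (SE 0.48, adjusted p = 0.0162). That comparison lost its call without sham prednisone replicate 2 (adjusted p = 0.0577) and without MI prednisone replicate 1 or 2 (adjusted p = 0.0608 and 0.0557). The transcript that lacks a 240-base exon at chr10:59348181-59348420 (ENSMUST00000092512.10) was at 3.22, 8.13 and 7.10 TPM in MI vehicle and at 18.2, 10.8 and 6.39 in MI prednisone. Those groups overlapped, and its share of the gene was 26.7% ± 6.31 (SD, n = 3) and 56.0% ± 18.4. The transcript with the upstream exon (ENSMUST00000009789.14) was at 4.29, 4.29 and 3.47 TPM in sham prednisone and at 6.74, 5.85 and 5.96 in MI prednisone. It rose between those groups by 0.52 (SE 0.15, adjusted p = 0.0305), a call that was lost with the replicate block (adjusted p = 0.0536), without mitochondrial genes (0.0616), without any 1 of the 3 sham prednisone libraries (0.0607, 0.0616 and 0.111) and without MI prednisone replicate 1 or 2 (0.112 and 0.0654). Transcripts of a gene share most of their sequence, so every transcript value here is an estimate that depends on how shared reads were divided.

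P4ha3 encodes another alpha subunit of the same enzyme and was the lowest of the 10 genes. Its level was 0.0597, 0.128 and 0.143 TPM in sham vehicle and 0.501, 1.89 and 2.00 in MI vehicle. In sham prednisone it was listed at 0, 0.0603 and 0.0457 TPM, and in MI prednisone at 0.516, 0.425 and 0.203. Only 2 libraries, both MI vehicle, were above 1 TPM, and all 6 MI libraries were above all 6 sham libraries. The MI groups overlapped each other.

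Plod1 and Plod2 encode lysyl hydroxylases, and Plod2 is the one that hydroxylates the telopeptide lysines used in the most stable crosslinks. Plod1 varied little, at 18.6, 22.0 and 22.2 TPM in sham vehicle, 21.5, 26.6 and 25.2 in the sham prednisone hearts, 23.2, 29.4 and 25.3 in the MI vehicle hearts, and 25.5, 22.0 and 22.3 in MI prednisone. The MI vehicle hearts were all above the sham vehicle hearts, and the other pairs of groups overlapped. Its change after MI in vehicle hearts was 0.30 (log2, SE 0.13, limma adjusted p = 0.104), and -0.14 after median-ratio rescaling. Under prednisone its difference between MI and sham was -0.06 (adjusted p = 0.781).

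Plod2 was at 6.05, 8.62 and 5.77 TPM in sham vehicle, 7.65, 7.71 and 6.90 in the sham prednisone hearts, 9.26, 14.5 and 10.9 in the MI vehicle hearts, and 5.29, 5.36 and 5.95 in MI prednisone. The MI vehicle hearts were above all other hearts, and the MI prednisone hearts lay below every sham prednisone heart. Plod2 rose after MI in vehicle hearts by 0.68 (SE 0.18, limma adjusted p = 0.0299). It fell under prednisone after MI by 0.92 (SE 0.18, adjusted p = 0.00324). The MI prednisone to sham prednisone difference was -0.37 (SE 0.18, adjusted p = 0.184). After median-ratio rescaling the rise after MI was 0.28 (adjusted p = 0.387) and the prednisone difference -0.51 (adjusted p = 0.0709), neither of them called.

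In their coding parts (2274 and 2211 bases) the main Plod2 transcripts differ by 1 alternative exon of 63 bases at chr9:92601985-92602047 (GRCm38, plus strand). It separates a long from a short form of the enzyme. The whole transcripts have 3663 and 3649 bases, so they also differ outside this exon. The exon is printed because the transcript that contains it held most of the gene's level in every group.
Plod2 alternative exon: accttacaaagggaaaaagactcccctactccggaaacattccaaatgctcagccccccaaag

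The Plod2 transcript with this exon (ENSMUST00000160359.1) was at 6.30, 10.6 and 6.75 TPM in MI vehicle and 3.05, 3.86 and 3.95 in MI prednisone. It fell by 0.92 between these groups (SE 0.19, limma adjusted p = 0.00499), a call lost after median-ratio rescaling (-0.57, adjusted p = 0.0664) and after length correction (-0.44, adjusted p = 0.145). Its share of the gene was 79.4% ± 11.3 (SD, n = 3) in sham vehicle, 75.4% ± 12.7 in sham prednisone, 67.7% ± 5.75 in MI vehicle and 65.4% ± 7.25 in MI prednisone, with overlapping hearts between neighbouring groups. The transcript without it (ENSMUST00000070522.13) held 8.28%, 3.87% and 3.98% of the gene in sham vehicle and 16.5%, 12% and 17.8% in MI vehicle. Those shares did not overlap, and the difference in share was not tested.

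**Figure D2:**
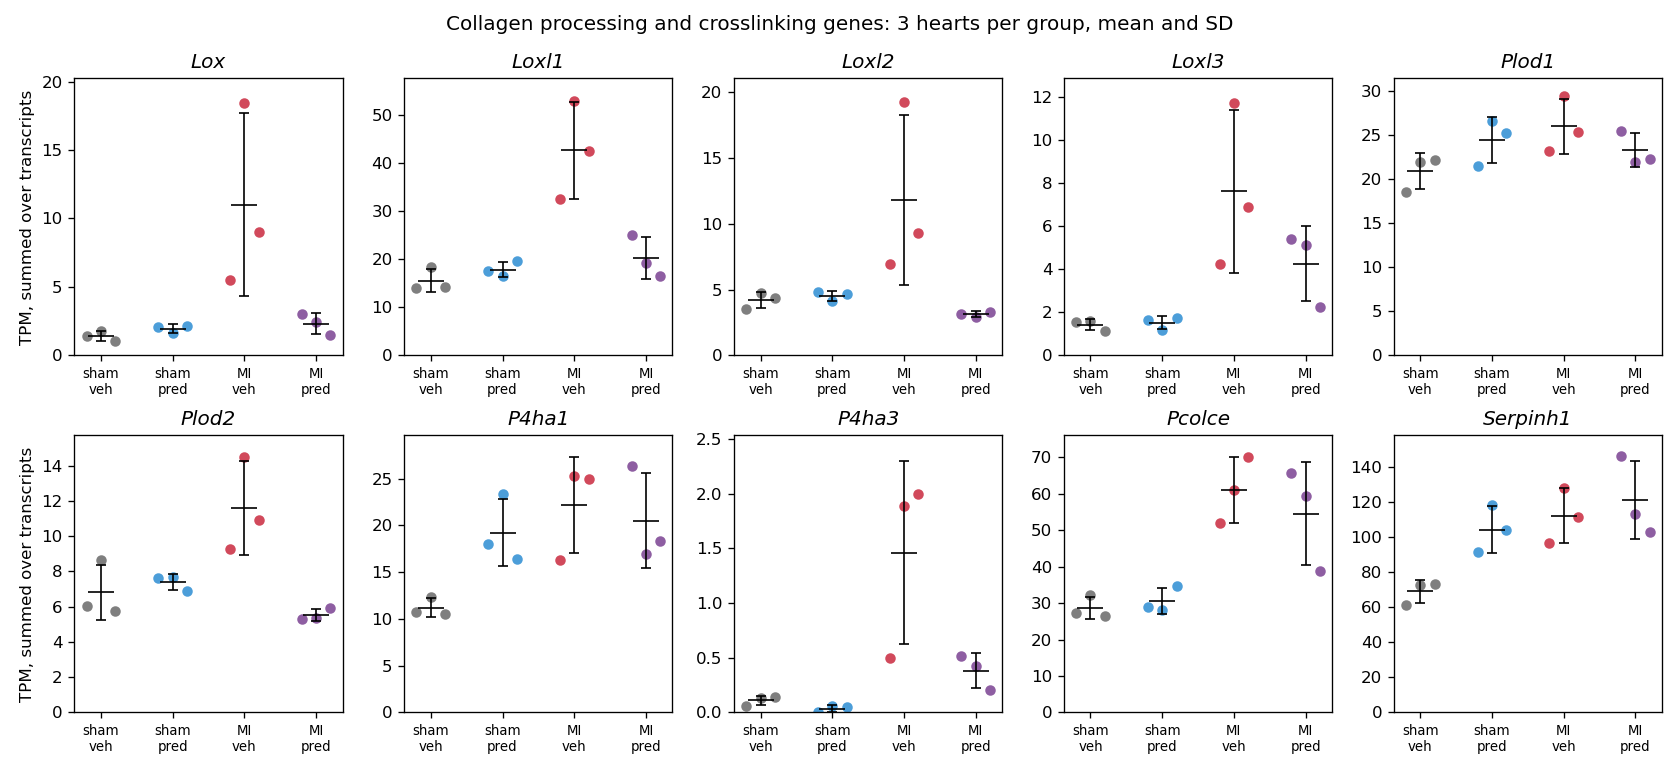
TPM summed over transcripts (y axis, linear, from 0) for each of the 10 genes in the 4 groups, with points for the 3 hearts and bars for mean and SD. Lox, Loxl1, Loxl2, Loxl3 and Plod2 show MI vehicle points apart from sham. P4ha1 and Serpinh1 instead show sham vehicle as the low group.

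Serpinh1, the collagen-specific chaperone, had the highest level of the 10 genes. It was at 61.4, 72.5 and 73.3 TPM in sham vehicle, 91.4, 118 and 104 in the sham prednisone hearts, 96.5, 128 and 111 in the MI vehicle hearts, and 146, 113 and 103 in MI prednisone. As with P4ha1, the sham vehicle hearts were lowest and the other groups overlapped. Serpinh1 rose after MI in vehicle hearts by 0.68 (log2, SE 0.16, limma adjusted p = 0.0207), which was 0.29 above the median gene, and the difference was 0.23 (adjusted p = 0.500) after median-ratio rescaling. Its prednisone difference was 0.59 in sham hearts (SE 0.16, unadjusted p = 0.00306, adjusted p = 0.785) and 0.10 in MI hearts (adjusted p = 0.615).

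Inside Serpinh1 a pair of protein-coding transcripts with the same coding length moved in opposite directions. The longer transcript (ENSMUST00000094154.5, 2215 bases) was at 86.1, 108 and 86.4 TPM in MI vehicle and at 67.5, 46.9 and 74.3 in MI prednisone. It fell by 0.58 (SE 0.19, limma adjusted p = 0.0386). That call was lost with the replicate block (adjusted p = 0.0539) and after median-ratio rescaling (-0.17, adjusted p = 0.640). It was also lost after length correction (-0.24, adjusted p = 0.490), without mitochondrial genes (0.170) and without the filter (0.106). The same held without the variance trend (0.0595) and with only the groups compared (0.104). It was lost as well without MI vehicle replicate 2 or 3 and without MI prednisone replicate 1 or 2. Leaving out sham vehicle replicate 3 or sham prednisone replicate 3 also lost it. The shorter transcript (ENSMUST00000207849.1, 2128 bases) was at 5.55, 11.8 and 18.1 TPM in MI vehicle and at 70.6, 59.9 and 21.9 in MI prednisone, with the first 2 of the latter far above all other hearts. It rose by 1.99 (SE 0.44, adjusted p = 0.00643), and from 10.4% ± 5.39 to 40.8% ± 17.2 of the gene.

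Pcolce encodes a secreted protein that speeds removal of the procollagen C-propeptide. Its gene total was 27.3, 32.2 and 26.5 TPM in sham vehicle, 28.9, 28.1 and 34.8 in the sham prednisone hearts, 52.1, 61.0 and 70.2 in the MI vehicle hearts, and 65.7, 59.3 and 38.7 in MI prednisone. All 6 MI hearts were above all 6 sham hearts, and the MI groups overlapped. Pcolce rose after MI by 1.06 (log2, SE 0.19, limma adjusted p = 0.0105) under vehicle and by 0.79 (SE 0.19, adjusted p = 0.0165) under prednisone. The call under prednisone was lost without sham prednisone replicate 1 or 2 (adjusted p = 0.0615 and 0.0680) and without MI prednisone replicate 1 or 2 (adjusted p = 0.0772 and 0.0724).

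Much of the Pcolce total in MI prednisone hearts was assigned to a short non-coding transcript. That transcript (ENSMUST00000146589.1, annotated as a retained intron) has 555 bases in 2 exons at the 3′ end of the gene, against 1626 bases in 9 exons for the full-length form, and keeps a 95-base intron at chr5:137605628-137605722 (GRCm38, minus strand). The intron with 15 bases of exon on each side (chr5:137605613-137605737) is printed because it is the sequence that sets this transcript apart from the spliced one. Capitals mark the intron.
Pcolce retained intron with flanks: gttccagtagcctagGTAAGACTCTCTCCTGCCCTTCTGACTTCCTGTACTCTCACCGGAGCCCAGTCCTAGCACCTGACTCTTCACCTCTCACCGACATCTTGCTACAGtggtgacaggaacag

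The retained-intron transcript ENSMUST00000146589.1 was at 1.10, 0 and 0 TPM in sham vehicle, 0.742, 0.852 and 1.22 in the sham prednisone hearts, 0, 0.674 and 0.545 in the MI vehicle hearts, and 23.7, 25.7 and 10.0 in MI prednisone. All 3 MI prednisone hearts stood far above the other 9. It was higher in MI prednisone than in MI vehicle by 3.82 (log2, SE 0.38, limma adjusted p = 0.000132) and than in sham prednisone by 3.33 (SE 0.38, adjusted p = 0.000287). It made up 35.1% ± 8.72 (SD, n = 3) of the gene in MI prednisone and 0.628% ± 0.568 in MI vehicle. The full-length coding transcript (ENSMUST00000031731.13) was at 46.7, 50.7 and 61.3 TPM in MI vehicle and at 37.7, 27.5 and 24.9 in MI prednisone. It fell by 0.81 (SE 0.17, adjusted p = 0.00512), or by 0.41 (adjusted p = 0.0731) after median-ratio rescaling. With protein-coding transcripts alone, a choice made after seeing this, Pcolce was at 50.6, 58.0 and 66.5 TPM in MI vehicle hearts and at 39.7, 29.9 and 27.2 in MI prednisone hearts. On that basis it fell under prednisone after MI by 0.85 (limma adjusted p = 0.00220), and its difference between MI and sham under prednisone was 0.17 (adjusted p = 0.495).

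**Figure D3:**
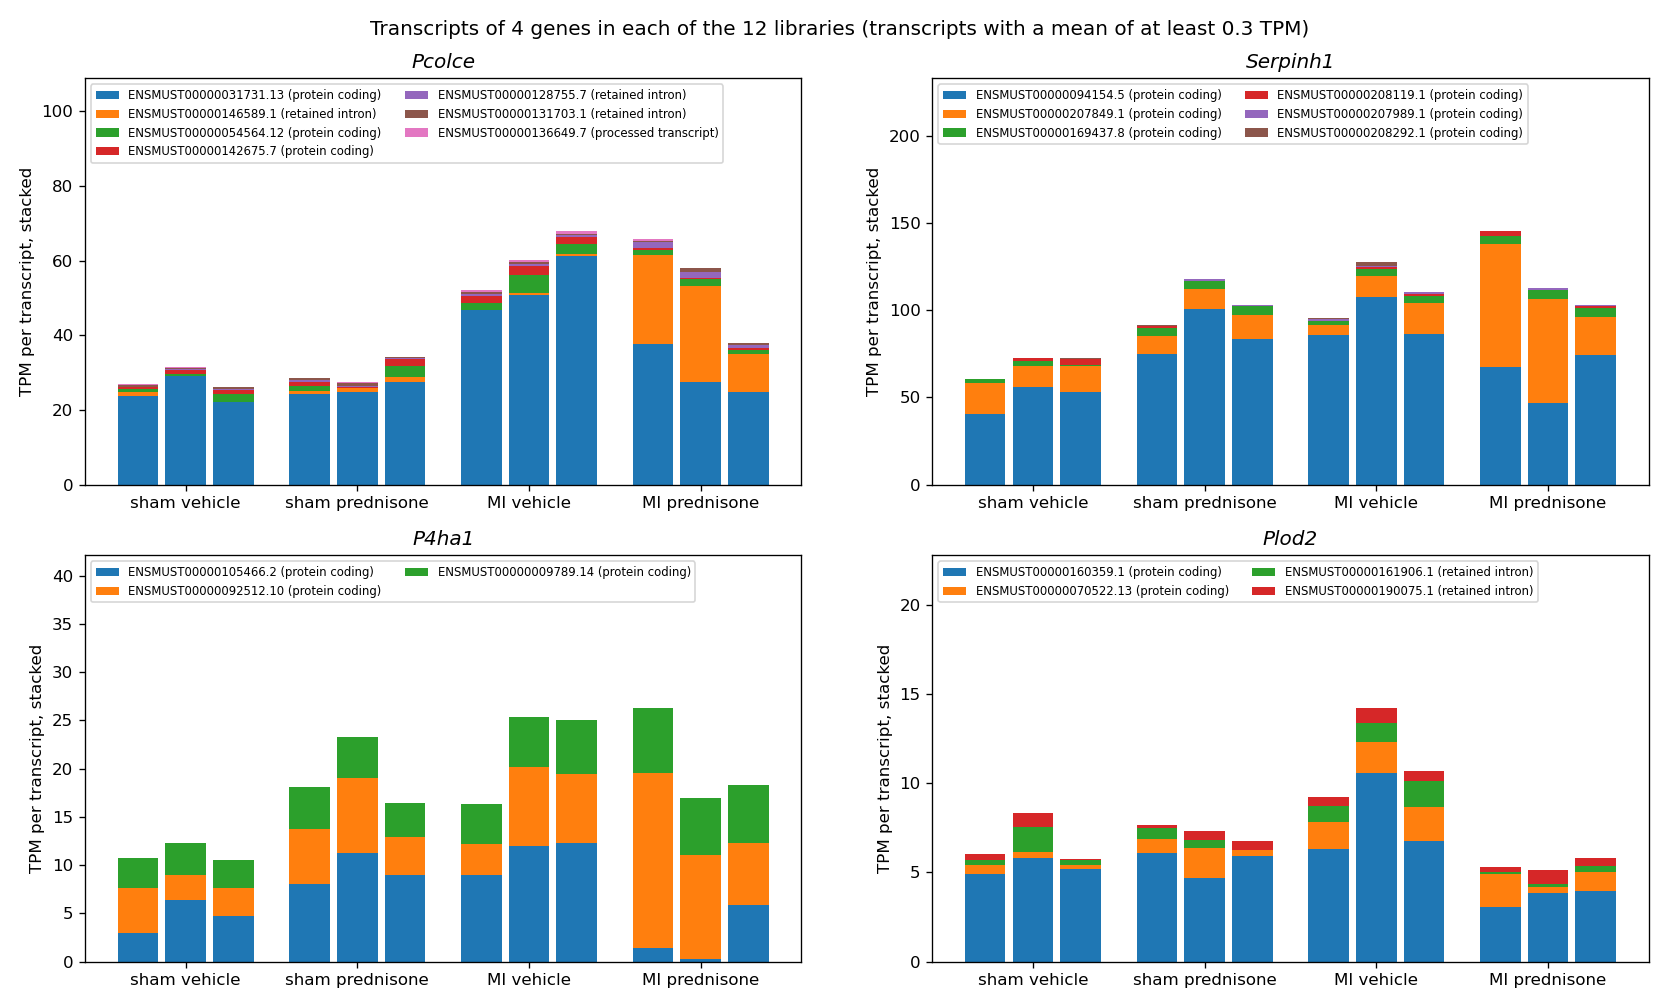
TPM per transcript (y axis, linear, stacked) in each of the 12 libraries for Pcolce, Serpinh1, P4ha1 and Plod2, showing transcripts averaging 0.3 TPM or more. In the 3 MI prednisone bars of Pcolce the retained-intron transcript takes 10.0 to 25.7 TPM, and in P4ha1 the transcript ENSMUST00000105466.2 shrinks to between 0.260 and 5.91 TPM.

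Across the 10 genes 48 transcripts were listed and 23 passed the same filter. Between MI prednisone and MI vehicle, 2 of the 23 rose and 8 fell by limma, beside 5.92% and 27.1% of all 27769 transcripts tested. Between MI and sham under vehicle, 6 rose and none fell, beside 2.66% and 0.184%. Under prednisone, 3 rose and 1 fell between MI and sham, beside 6.75% and 15.6%. The transcripts that rose in MI prednisone over MI vehicle were shorter than the partner that fell, in Pcolce (555 against 1626 bases) and in Serpinh1 (2128 against 2215). In P4ha1 the transcript that fell (ENSMUST00000105466.2, 2918 bases, -2.13) was shorter than ENSMUST00000009789.14 (4043 bases, 0.27, not called). It was longer than ENSMUST00000092512.10 (2387 bases, 0.81, not called). The MI prednisone libraries are also those with the negative relation to transcript length given above. With the length correction the fall of the longer Serpinh1 transcript became -0.24 (limma adjusted p = 0.490). Its call was also lost under settings without a length correction, as given above. The P4ha1 transcript with the upstream exon went from 0.27 (adjusted p = 0.183) to 0.78 (adjusted p = 0.00271) between the same groups. The part of transcript length in these shifts was not tested beyond that.

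The lysyl oxidases catalyse the last enzymatic step, and among the tested gene totals Lox and Loxl3 had the largest changes after MI under vehicle. Lox, the founding member of the family, was at 1.41, 1.79 and 1.06 TPM in sham vehicle, 2.10, 1.61 and 2.15 in the sham prednisone hearts, 5.50, 18.4 and 8.99 in the MI vehicle hearts, and 3.03, 2.46 and 1.48 in MI prednisone. The MI vehicle hearts were the highest 3 of the 12, with replicate 2 at the top, and MI prednisone overlapped both sham groups. Lox rose after MI in vehicle hearts by 2.17 (log2, SE 0.33, limma adjusted p = 0.00675). It fell under prednisone after MI by 1.73 (SE 0.33, adjusted p = 0.00355), and by 1.31 (adjusted p = 0.00639) without MI vehicle replicate 2. Under prednisone its MI to sham difference was 0.14 (SE 0.33, adjusted p = 0.816). The interaction was -2.03 (SE 0.47, adjusted p = 0.0159).

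Lox was listed as a pair of transcripts whose balance differed in MI prednisone. ENSMUST00000025409.7 was at 3.45, 11.5 and 6.04 TPM in MI vehicle and at 0.197, 0.583 and 0.140 in MI prednisone, and it fell by 2.50 (SE 0.33, limma adjusted p = 0.000492). Its share of the gene was 64.1% ± 2.68 (SD, n = 3) and 13.2% ± 9.22 in those groups, beside 64.2% ± 13.4 in sham vehicle. The other transcript, ENSMUST00000171470.7, was at 2.05, 6.92 and 2.95 TPM in MI vehicle and at 2.84, 1.87 and 1.34 in MI prednisone, and these groups overlapped.

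Loxl1, which is best known for crosslinking elastin, was the most abundant lysyl oxidase. It was at 14.1, 18.3 and 14.2 TPM in sham vehicle, 17.5, 16.4 and 19.6 in the sham prednisone hearts, 32.5, 52.8 and 42.5 in the MI vehicle hearts, and 25.1, 19.1 and 16.5 in MI prednisone. MI vehicle stood apart from the other 3 groups, which overlapped. Loxl1 rose after MI by 1.38 (SE 0.19, limma adjusted p = 0.00526) in vehicle hearts. It fell under prednisone after MI by 1.03 (SE 0.19, adjusted p = 0.00314), which became -0.58 (adjusted p = 0.0539) after median-ratio rescaling. Its interaction was -1.23 (SE 0.27, adjusted p = 0.0142).

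Loxl2, a lysyl oxidase with scavenger receptor domains that acts on basement membrane collagen, was at 3.54, 4.74 and 4.37 TPM in sham vehicle, 4.83, 4.11 and 4.65 in the sham prednisone hearts, 6.97, 19.2 and 9.32 in the MI vehicle hearts, and 3.15, 2.93 and 3.32 in MI prednisone. The MI prednisone hearts were the lowest 3 of the 12. Loxl2 rose after MI in vehicle hearts by 1.19 (SE 0.27, limma adjusted p = 0.0206), and that became 0.79 (adjusted p = 0.114) after median-ratio rescaling. Loxl2 fell under prednisone after MI by 1.52 (SE 0.27, adjusted p = 0.00242). Its difference between MI prednisone and sham prednisone was -0.42 (SE 0.27, adjusted p = 0.328), which was not called. Its interaction was -1.61 (SE 0.38, adjusted p = 0.0169).

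Loxl3, the closest relative of Loxl2 in domain layout, was at 1.55, 1.58 and 1.14 TPM in sham vehicle, 1.65, 1.17 and 1.75 in the sham prednisone hearts, 4.25, 11.7 and 6.88 in the MI vehicle hearts, and 5.40, 5.13 and 2.26 in MI prednisone. All 6 MI hearts were above all 6 sham hearts, and the MI groups overlapped. Loxl3 rose after MI under vehicle by 1.74 (SE 0.32, limma adjusted p = 0.0113). Under prednisone the difference between MI and sham was 1.01 (SE 0.32, adjusted p = 0.0537). It passed the threshold after median-ratio rescaling (1.08, adjusted p = 0.0292) and with a pseudocount of 0.1 (1.35, adjusted p = 0.0353). The prednisone difference after MI was -0.68 (SE 0.32, adjusted p = 0.114).

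Averaged over the 12 hearts, on the TPM scale, the order of the genes was Serpinh1 (102), Pcolce (43.7), Loxl1 (24.1), Plod1 (23.6), P4ha1 (18.3), Plod2 (7.83), Loxl2 (5.92), Lox (4.17), Loxl3 (3.70) and P4ha3 (0.498). Serpinh1 exceeded Pcolce in every group without overlap, and Pcolce exceeded Loxl1 in all groups but MI vehicle, where the lowest Pcolce heart (52.1 TPM) and the highest Loxl1 heart (52.8 TPM) crossed. Plod1 and Loxl1 changed places: Plod1 was above Loxl1 in both sham groups without overlap, Loxl1 was above Plod1 in MI vehicle without overlap, and they overlapped in MI prednisone. Plod2 and Loxl2 overlapped in MI vehicle alone. Lox and Loxl3 overlapped in every group, and P4ha3 was below both throughout.

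The levels were also set against the collagen they act on, as log2(TPM + 1) of each gene minus the mean over 7 fibrillar collagen genes (Col1a1, Col1a2, Col3a1, Col5a1, Col5a2, Col5a3 and Col11a2) in the same heart. This difference does not depend on how a library is scaled, apart from the pseudocount, and with 3 hearts a side the smallest two-sided exact permutation p is 0.1. It also moves when the collagens move. By limma 5 of the 7 collagens rose after MI under vehicle (median 1.69, log2), beside 15.1% of all genes. Under prednisone after MI 5 fell (median -1.54), beside 34.9%. Per unit of collagen, Lox went from -2.00 ± 0.04 (SD, n = 3) in sham vehicle to -1.06 ± 0.48 in MI vehicle, a difference of 0.94 (exact permutation p = 0.1). Loxl3 differed by 0.51 and Loxl1 by 0.15 in the same direction, each without overlap. Plod1 (-0.93), Plod2 (-0.55), Serpinh1 (-0.55) and P4ha1 (-0.33) were lower per unit of collagen in MI vehicle than in sham vehicle, also without overlap. Thus 3 of 9 genes were higher and 4 lower, where 0.411% of all genes were higher and 68.7% lower.

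Between MI prednisone and MI vehicle, Lox (-0.73) and Loxl2 (-0.52) were lower per unit of collagen with no overlap, which held for 0.471% of all genes. Serpinh1 (1.10), P4ha1 (0.89), Plod1 (0.85) and Pcolce (0.81) were higher with no overlap, which held for 44.7% of all genes, a share close to that of these 9. Their own levels changed by 0.10, -0.11, -0.15 and -0.18 (log2, none called by limma), while the median change of the 7 collagen genes was -1.54. Loxl1 (-0.03), Loxl3 (0.32) and Plod2 (0.07) overlapped. The Pcolce value rests on the gene total with its retained-intron transcript: with protein-coding transcripts only, for the enzymes and the collagens alike, it was 0.13 and the groups overlapped (exact permutation p = 0.6). Each of the 6 separated genes had the exact permutation p of 0.1 that is the smallest possible. Under prednisone, MI against sham, Loxl3 (0.99), Pcolce (0.77) and Loxl1 (0.14) were higher and Loxl2 (-0.43) lower without overlap, beside 14.7% and 24.2% of all genes. With protein-coding transcripts only, Pcolce (0.09) and Loxl1 (0.07) overlapped there, Loxl3 was 0.59 and Loxl2 -0.50 without overlap, and Plod2 (-0.49) became separated. In sham hearts prednisone separated P4ha1 (0.50) upwards and Pcolce (-0.13) downwards, beside 0.920% and 20.8%, and with protein-coding transcripts Pcolce (-0.11) overlapped.

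**Figure D4:**
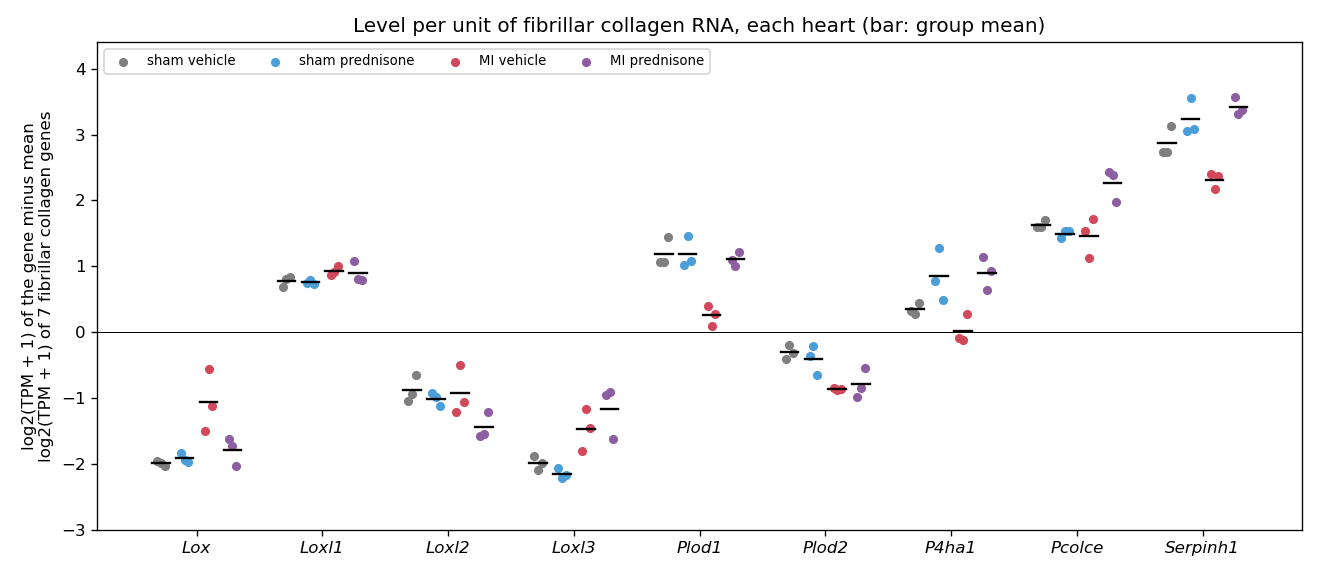
Log2(TPM + 1) of each of the 9 tested genes minus the mean log2(TPM + 1) of 7 fibrillar collagen genes in the same heart (y axis), by group, with a bar at each group mean. Lox stands highest in MI vehicle, Serpinh1 is lowest there, and Loxl1 stays between 0.69 and 1.08 in all 12 hearts.

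The remaining genes of the pathway were read from lists of 33 genes, of which 29 were tested. After MI under vehicle 16 rose and none fell, beside 15.1% and 0.904% of all genes. In the crosslinking list, Fmod, a proteoglycan that binds collagen fibrils, rose by 1.82 (log2) and Tgm2, a transglutaminase, by 0.87. In the propeptide list, Adamts2, the N-proteinase, rose by 1.26, Bmp1, the C-proteinase, by 0.81 and Pcolce2 by 0.75. Of 15 other endoplasmic reticulum genes 9 rose, the largest being P3h2 (1.02), P3h3 (0.93) and Ppib (0.90), and of 7 export genes Creb3l1 (0.71) and Sec24d (0.55) rose. Their median was 0.49, beside 1.06 for the 9 genes above and 0.39 for all genes.

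Under prednisone after MI 13 of these 29 genes fell and none rose by limma, beside 34.9% and 2.50% of all genes, with a median of -0.44 beside -0.41. Fmod fell by 1.89, Adamts2 by 1.19, P3h2 by 0.77, Tgm2 by 0.72 and Pcolce2 by 0.71. Among the export genes, several of which act in the large COPII carriers that procollagen needs, Sec23a fell by 1.39, Sec24d by 1.02 and Mia3 (TANGO1) by 0.83. Colgalt1 (-0.62), Furin (-0.63) and Fkbp9 (-0.56) also fell. Between MI and sham under prednisone 1 rose and 5 fell, beside 2.73% and 14.1% of all genes: Crtap rose (0.71), and Sec23a (-1.25), Furin (-0.65), Mia2 (-0.65) and Mia3 (-0.61) were among those that fell. Of 7 tested TGF-beta pathway genes 6 rose after MI under vehicle (median 0.90), and all 7 fell under prednisone after MI (median -0.94). Of 14 hypoxia response genes 3 rose and none fell after MI under vehicle (median 0.29), and 1 rose and 3 fell under prednisone after MI (median -0.14). The shares of all genes beside these counts are those just given for the same comparisons.

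Across the 12 hearts the 36 pairs among the 9 genes had a median Pearson r of 0.65, which is given as a description since the hearts share groups and libraries. Lox and Loxl1 were the closest pair (r = 0.98), followed by Loxl2 with Plod2 (0.95), Loxl3 with Pcolce (0.93) and P4ha1 with Serpinh1 (0.93). Plod2 and Serpinh1 were the least alike (0.19). Outside the 10 genes, among 8109 genes averaging 5 TPM or more, those that followed their averaged pattern most closely included Pmepa1 (r = 0.97), Pea15a (0.97), Lmna (0.97) and Emp1 (0.96), over the same 12 hearts. Emp1, for example, averaged 19.5 TPM in sham vehicle, 62.8 in MI vehicle and 30.5 in MI prednisone.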

How the data were processed

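Libraries were made with a stranded mRNA kit, per the labels' protocols. The authors deposited 1 table of TPM values for 105129 transcripts, per the file headers, with gene symbols. Trimmomatic, HISAT2, kallisto and the build mm10 are named in the submitters' processing notes; their roles, versions and the annotation release were not given in the sources used here. Of the transcript identifiers, 94.7% were found in the annotation used here for exon positions and transcript types. ENSMUST00000025409.7 was matched by its unversioned identifier for its type only, and no length was attached to it.

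Transcript TPM were summed to genes, filtered at 1 TPM in 3 of 12 libraries and analysed as log2(TPM + 1), so fold changes understate those of low genes. The fit was limma 3.58.1 (R 4.3.3) with a variance trend, 1 mean per group over all 12 libraries, and Benjamini-Hochberg adjustment at 0.05. It was checked on simulated data. TPM is not a count and carries no depth. Levels per unit of collagen were compared by two-sided exact permutation. All 10 genes are reported in every comparison. Pathway genes are named where called, up to 3 per list by size; the 5 most alike genes were those with the highest correlation, 1 of which is not reported here. The genes and lists were chosen with earlier results of these data known. Alternatives were rescaling by median ratios, no filter, no variance trend, a pseudocount of 0.1, the most abundant transcript, only the groups compared, a correction for length (loess, span 0.5), a replicate block, leaving out mitochondrial genes, and leaving out each library. Replicate numbers belong to different mice in each group, so they do not pair the samples.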

Additional observations from a re-analysis of the deposited data

Results flagged for a closer look

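The prednisone difference differed between surgeries, by limma's interaction term with Benjamini-Hochberg adjustment, for Lox (-2.03, log2), Loxl1 (-1.23), Loxl2 (-1.61) and Plod2 (-1.05, SE 0.25, adjusted p = 0.0165). In sham hearts the prednisone differences of the same genes were 0.30, 0.19, 0.09 and 0.13, and in MI hearts -1.73, -1.03, -1.52 and -0.92. For the other 5 tested genes the interaction lay between -0.83 (P4ha1, adjusted p = 0.0634) and -0.27 (Pcolce, adjusted p = 0.468). Among all genes 20.7% had a negative interaction past the threshold, with a median of -0.48.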

How the results depend on the processing

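The number of the 9 genes called in MI against sham under vehicle was 8. It was 4 with median-ratio rescaling, 4 with the length correction, 4 without mitochondrial genes, 5 by the most abundant transcript, 0 with only the groups compared, 0 with the block and length correction together, and 2 to 9 leaving out 1 library. Under prednisone it was 1, and 2 with median-ratio rescaling, a pseudocount of 0.1, the length correction, the block with length correction or without mitochondrial genes, 4 with only the groups compared, 0 with protein-coding transcripts only, and 0 to 2 leaving out 1 library (0 without sham prednisone replicate 1 or 2 or MI prednisone replicate 1 or 2). For prednisone against vehicle after MI it was 4, and 2 with median-ratio rescaling, 1 with length correction, 0 with block and length correction, and 7 by the most abundant transcript. For the interaction it was 4, and 0 with median-ratio rescaling, length correction, or block and length correction, 7 by the most abundant transcript, and 2 to 5 leaving out 1 library (2 without sham vehicle replicate 1). Per unit of collagen in sham hearts, 2 genes separated, 1 with a pseudocount of 0.1, 1 with protein-coding transcripts only and 4 without sham vehicle replicate 1. The causes were not tested.

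The replicate block alone gave 8, 1, 4, 0 and 4 calls in the 5 comparisons. Deviations of same-numbered libraries had mean correlations of -0.37, -0.05, -0.25 and 0 in the 4 pairwise comparisons. Each mean rests on few pairs, so these values cannot decide whether same-numbered libraries were prepared together.

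Signs turned only for values that were not called in the fit as reported. For MI against sham under prednisone, the most abundant transcript gave -0.78 for Lox, -1.91 for P4ha1 and -0.47 for Serpinh1. Leaving out 1 library gave -0.01 to 0.34 for Lox, 0.00 to 0.29 for Loxl1 (gene and its transcript ENSMUST00000061799.9) and -0.11 to 0.21 for P4ha1, which was -0.01 without mitochondrial genes. Plod1 was 0.02 rescaled and 0.11 with either length correction, and the Loxl2 transcript ENSMUST00000022660.13 was 0.13 with either. For MI against sham under vehicle, Plod1 was -0.14 rescaled and -0.13 with either length correction. For prednisone against vehicle after MI, rescaling gave 0.30 for Plod1, 0.33 for P4ha1 and 0.27 for Pcolce, either length correction 0.37, 0.40 and 0.10, and the most abundant transcript -0.58 for Serpinh1, while leaving out 1 library gave -0.31 to 0.01 (P4ha1), -0.33 to 0.04 (Pcolce) and -0.04 to 0.21 (Serpinh1). In sham hearts Loxl2 was -0.02 with either length correction, -0.11 by the most abundant transcript and -0.01 without sham vehicle replicate 1. Loxl3 was -0.03 with either length correction and, without 1 library, down to -0.03, and Pcolce 0.00 to 0.17. For the interaction, rescaling gave 0.16 (Plod1), 0.26 (Pcolce) and 0.06 (Serpinh1), and either length correction 0.24 (Plod1) and 0.04 (Pcolce).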
